A study of Mus musculus with 6 samples.

Results

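AP-1 is a family of dimeric transcription factors built from a Fos and a Jun protein, and its subunit genes belong to the immediate early genes, which cells transcribe briefly after growth factors, serum or stress without the need for new protein. The Fos proteins dimerize only with partners such as the Jun proteins, whereas Jun proteins also pair among themselves. *Egr1*, *Atf3* and *Ier2* are induced by the same kinds of signal. In endothelial cells these genes are known as early responders to vascular growth factors, shear and injury. The 10 genes described here were *Fos*, *Fosb*, *Fosl1*, *Fosl2*, *Jun*, *Junb*, *Jund*, *Egr1*, *Atf3* and *Ier2*, chosen by their symbols. They made up 10 of the 24421 genes in the deposited table, and 10 of 10 had enough counts to be tested.

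The cells were cultured primary endothelial cells of the stria vascularis, the vascularized epithelium of the cochlear lateral wall, of mice on postnatal days 10 to 12. Cells from mice with a knockout of 1 gene (KO, 3 libraries) were compared with cells from wildtype mice (WT, 3 libraries), 1 library per culture, each culture pooled from several mice. The knockout was constitutive, so it was not limited to the endothelium. The labels give C57BL/6N as the strain background of both genotypes, whereas the methods of the study give a C57bl6/j background. All cultures were untreated, were grown in the same medium with fetal bovine serum and endothelial cell growth factor, and had been purified by cell sorting. The sex of the mice was not given in the sources used here.

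Between 25587097 and 29126232 reads per library were assigned to genes. Normalized counts are reads per gene after TMM scaling to the mean library size. Of the endothelial markers, *Pecam1* had at most 8 reads in any library and *Cldn5* had 0 reads in each library. *Cdh5* was present in both genotypes but lower in KO. *Emcn* and *Eng* had the most counts among these markers. Outside WT replicate 2 they had 9896 to 18385 and 2721 to 5079 normalized counts, and in WT replicate 2 they had 409 and 866. The fibroblast markers were high, with 10 of 10 averaging 100 or more normalized counts, against 7 of 14 endothelial, 6 of 10 mural and 3 of 10 macrophage markers in the table, so the endothelial label rests on part of its markers only. KO replicates 1 and 2 were far closer to each other than any other pair of libraries, with a mean chi-square per gene of 5.10 against 103 to 462 for the other 14 pairs, which was still more than sampling noise. WT replicate 2 stood apart on principal component 1, at 106 against -28.5 to -6.52 for the other 5 libraries.

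Promoter sequences are shown for *Fos*, *Fosb*, *Jun* and *Junb*, AP-1 subunit genes that each had their highest level in WT replicate 1, as did *Jund*. Their levels differed in the other libraries. In KO replicate 3 *Fos*, *Fosb* and *Junb* were well above the other KO cultures, whereas *Jun* was near them. Each run is 120 bases long, is read 5′ to 3′ along the coding strand and ends at the base before the RefSeq transcription start (GRCm38.p6). Capitals mark matches to TATAAA, the TATA box, and to TGACG, the core of the cyclic AMP response element, on either strand. The *Fos* stretch is chr12:85473770-85473889 (plus strand), that of *Fosb* is chr7:19310046-19310165 (minus strand), that of *Jun* is chr4:95052223-95052342 (minus strand) and that of *Junb* is chr8:84978749-84978868 (minus strand).
Fos: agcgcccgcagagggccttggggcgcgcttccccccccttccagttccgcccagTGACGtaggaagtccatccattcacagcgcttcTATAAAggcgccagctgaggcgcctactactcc
Fosb: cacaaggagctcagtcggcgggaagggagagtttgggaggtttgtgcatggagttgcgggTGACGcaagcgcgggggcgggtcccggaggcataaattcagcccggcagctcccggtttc
Jun: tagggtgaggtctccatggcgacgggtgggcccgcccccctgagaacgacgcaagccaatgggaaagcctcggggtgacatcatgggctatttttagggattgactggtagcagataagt
Junb: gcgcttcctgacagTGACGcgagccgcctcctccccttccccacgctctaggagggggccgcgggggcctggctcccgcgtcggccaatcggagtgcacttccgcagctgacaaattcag

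RefSeq promoters, from 250 bases before to 50 bases after the start, were matched for 7 of the 10 genes (*Fos*, *Fosb*, *Fosl2*, *Jun*, *Junb*, *Jund* and *Atf3*). TGACG lay in 4 of these 7, those of *Fos*, *Fosb*, *Junb* and *Atf3*, and in 20.8% of all 32851 promoters. In *Fos* it began 66 and 129 bases before the start, in *Fosb* 60 bases and in *Junb* 106 bases before it. TATAAA was found in 2 of the 7, 33 bases before the start of *Fos* and at the RefSeq start of *Junb*, and in 13.6% of all promoters. The whole cyclic AMP response element TGACGTCA (1.79% of all promoters), the AP-1 site TGACTCA (5.2%) and the CArG box bound by serum response factor (1.63%) had 0 matches in the 7 windows. These are matches of letters in short windows, and the search for TGACG was added after the whole element had been searched. Sites more than 250 bases before the start were not searched. The RefSeq start used for *Jund* came just after base 70697738 of chromosome 8, upstream of the GENCODE start of that gene at 70698949. That of *Junb* came just after base 84978749 along the minus strand, upstream of the GENCODE start at 84978718. Both *Junb* distances therefore hold for the RefSeq start only. RefSeq and GENCODE starts also differed for *Fosb*, *Fosl2* and *Atf3*, and were the same for *Fos* and *Jun*.

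Several of the 10 genes differed widely between cultures of the same genotype, and 5 of 10 had a spread above that of 95% of all genes tested. WT replicate 1 had the highest normalized count of 8 of the 10 genes, whereas it was the highest library for 19.8% of all 13479 genes tested. In that library the 10 genes took 0.596% of all reads on genes, against 0.114% and 0.215% in WT replicates 2 and 3. In KO replicates 1 to 3 their share was 0.120%, 0.131% and 0.231%, so KO replicate 3 was the highest of its genotype. *Fos* and *Egr1* alone held between 73.1% and 79.0% of the reads on the 10 genes in each library.

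**Figure D1:**
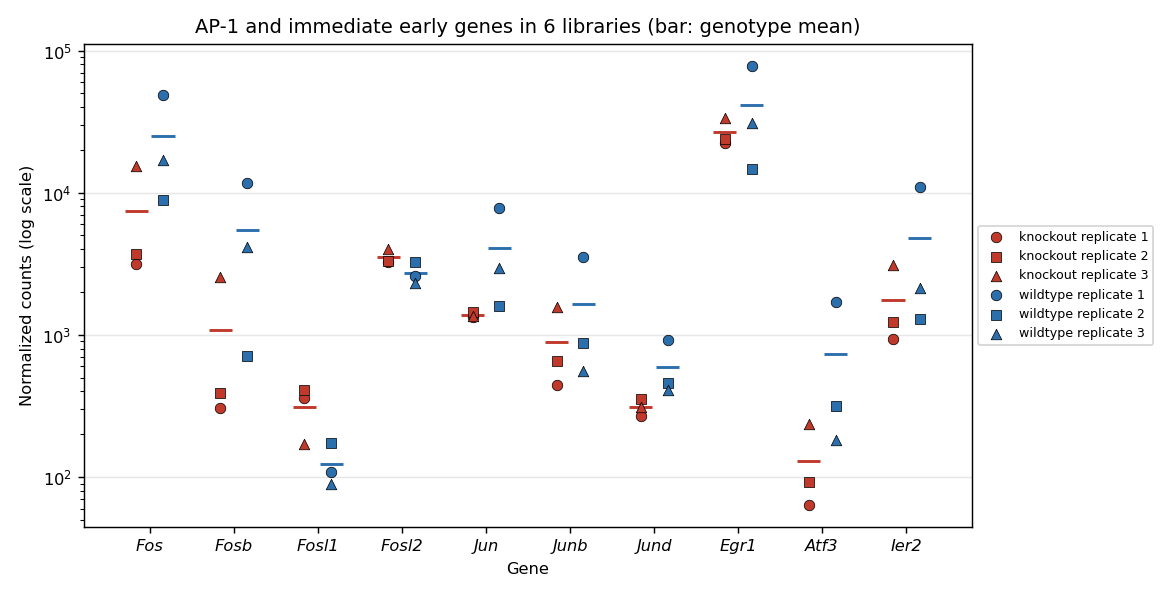
Normalized counts (log scale) of the 10 genes in each of the 6 libraries, with KO in red, WT in blue, a marker shape per replicate and a bar for the mean of each genotype. WT replicate 1 is the highest point of 8 genes, and KO replicates 1 and 2 lie close together, below KO replicate 3, for *Fos*, *Fosb*, *Junb*, *Atf3* and *Ier2*.

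No gene of the 10 was called different between KO and WT. EdgeR, by its quasi-likelihood F-test adjusted over every gene tested, called 0 of 10 at an adjusted p under 0.05, where it called 0.0668% of all genes. DESeq2 called 0 of 10, against 4.69% of all genes, and limma-voom called 0 of 10, against 0.0742% of all genes. At an unadjusted p under 0.05, edgeR gave 4 of the 10 (*Fosl1* higher, *Jun*, *Jund* and *Atf3* lower), against 11.8% of all genes, and DESeq2 gave 5, against 13.9%. Of the 10, 8 had a log2 fold change (KO over WT) below 0, against 51.9% of all genes tested, and the median was -1.20, against -0.02 over all genes. Without WT replicate 1 that median was -0.23, with 5 of 10 below 0 and 0 of 10 called by edgeR (0.0293% of all genes), of which 1 had an unadjusted p under 0.05 against 14.7% of all genes. Without WT replicate 2 it was -1.56, with 8 of 10 below 0 and 0 of 10 called (2.88% of all genes), while 9 had an unadjusted p under 0.05 against 19.5% of all genes. With KO replicates 1 and 2 summed to 1 library, 0 of 10 had an unadjusted p under 0.05, against 6.19% of all genes. Levels in KO were below those in WT without overlap for 2 of 10 (*Jun* and *Jund*), against 9.57% of all genes, and above them without overlap for 1 of 10 (*Fosl2*), against 10.3%.

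**Figure D2:**
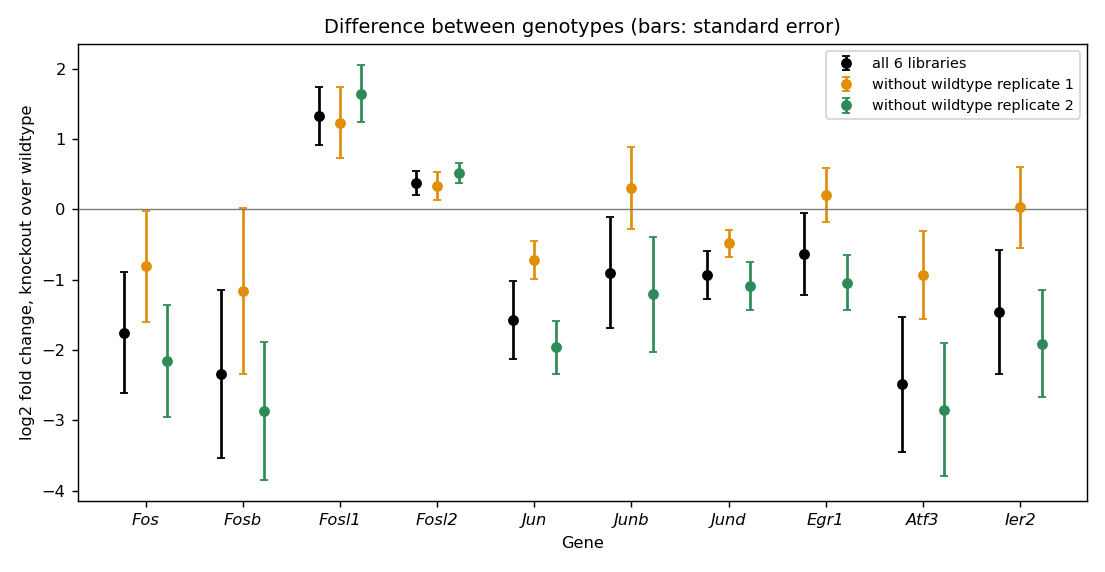
Log2 fold change of KO over WT for the 10 genes with its standard error, fitted with all 6 libraries (black), without WT replicate 1 (orange) and without WT replicate 2 (green). Without WT replicate 1 the values of *Junb*, *Egr1* and *Ier2* lie at or above 0, at 0.30, 0.21 and 0.031.

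*Fos* encodes the founding Fos subunit of AP-1 and is found on chromosome 12 (GRCm38) at 85473890 to 85477273. *Fos* reached 3164, 3679.7 and 15350.5 normalized counts in KO replicates 1 to 3 and 48875, 8875 and 17045 in WT replicates 1 to 3. KO replicates 1 and 2 were below each WT culture, but KO replicate 3 was above WT replicate 2, so the genotypes overlapped. The means were 7398 ± 6892 (SD, n = 3) in KO and 24932 ± 21134 (SD, n = 3) in WT. On the log2 scale KO over WT came to -1.75 ± 0.86 (SE; edgeR adjusted p = 0.486), and it moved to -0.81 without WT replicate 1 and to -2.87 without KO replicate 3. By raw count *Fos* ranked 1912 and 1563 among all genes in KO replicates 1 and 2, 192 in KO replicate 3, and 48, 552 and 171 in WT replicates 1 to 3.

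*Fosb*, which encodes a close relative of Fos, occupies 19302696 to 19310051 of chromosome 7. In normalized counts it stood at 308, 393 and 2546 in KO replicates 1 to 3 and 11644, 704 and 4144 in WT replicates 1 to 3. The order of the libraries was that of *Fos*, with WT replicate 1 at the top and KO replicates 1 and 2 at the bottom. Within WT the highest culture was 16.5-fold above the lowest, and within KO 8.27-fold. For *Fosb* the log2 difference of KO from WT was -2.34 ± 1.20 (SE; edgeR adjusted p = 0.507). It was -1.17 without WT replicate 1 and -3.98 without KO replicate 3.

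*Fosl1* encodes Fra-1, a Fos protein without the C-terminal activation region of Fos, and lies on chromosome 19 from 5447547 to 5455946. It had 359, 407 and 171 normalized counts in KO replicates 1 to 3 and 109, 174 and 89.8 in WT replicates 1 to 3. This was nearly the reverse of the *Fos* order, with KO replicates 1 and 2 the highest and WT replicates 1 and 3 the lowest. KO replicate 3 lay just below WT replicate 2, which was the only overlap between the genotypes. Mean levels of 312 ± 125 in KO and 124 ± 44.4 in WT (SD over 3 cultures each) gave a difference of 1.33 ± 0.41 (SE) in log2 (edgeR adjusted p = 0.282, and 0.0166 unadjusted). Its adjusted p lay between 0.0639 (DESeq2) and 0.832 over 14 alternatives. The summed normalized counts of 16 cell cycle genes ran with *Fosl1*, at 15550.3, 15468 and 8530.2 in KO replicates 1 to 3 and 3460.4, 3954 and 2574 in WT replicates 1 to 3, and their part in the result was not tested. *Fosl1* shares its locus with *Ccdc85b* on the other strand. Whether the counting used strand was not given in the sources used here.

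*Fosl2*, which encodes Fra-2, lies on chromosome 5 from 32135801 to 32157842 and was the steadiest of the 10 genes. In normalized counts *Fosl2* stood at 3276, 3305 and 4003 in KO replicates 1 to 3 and 2586, 3247 and 2334 in WT replicates 1 to 3. KO exceeded WT in every pair of cultures, by a small margin over WT replicate 2, and a permutation test enumerated exactly gave p = 0.1, its floor with 3 cultures a side. This was a log2 difference of 0.37 ± 0.17 (SE; edgeR adjusted p = 0.448).

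The make-up of the Fos family differed between libraries along with these levels. Per kilobase of exon, *Fos* held 70.4%, 72.1% and 87.8% of the family sum in KO replicates 1 to 3 and 90.5%, 87.6% and 88.4% in WT replicates 1 to 3. *Fosl2* held 17.7%, 15.7% and 5.56% in KO and 1.16%, 7.79% and 2.94% in WT. *Fosl1* held 9.24%, 9.23% and 1.13% in KO and 0.232%, 1.99% and 0.539% in WT. KO replicates 1 and 2 thus had the largest shares of both Fra genes, whereas KO replicate 3 lay within the WT range for *Fosl1* and *Fosl2*. These shares depend on the length used. Per kilobase of coding sequence *Fos* held 40.4%, 43.1% and 66.4% in KO replicates 1 to 3 and *Fosl2* 48.8%, 45.1% and 20.2%, so *Fosl2* was then ahead of *Fos* in KO replicates 1 and 2. In WT *Fos* held 64.8% to 75.0% on that scale and stayed the largest part. Per kilobase of exon the share of *Fosb* was between 2.58% and 5.49% in KO and between 2.62% and 8.12% in WT.

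**Figure D3:**
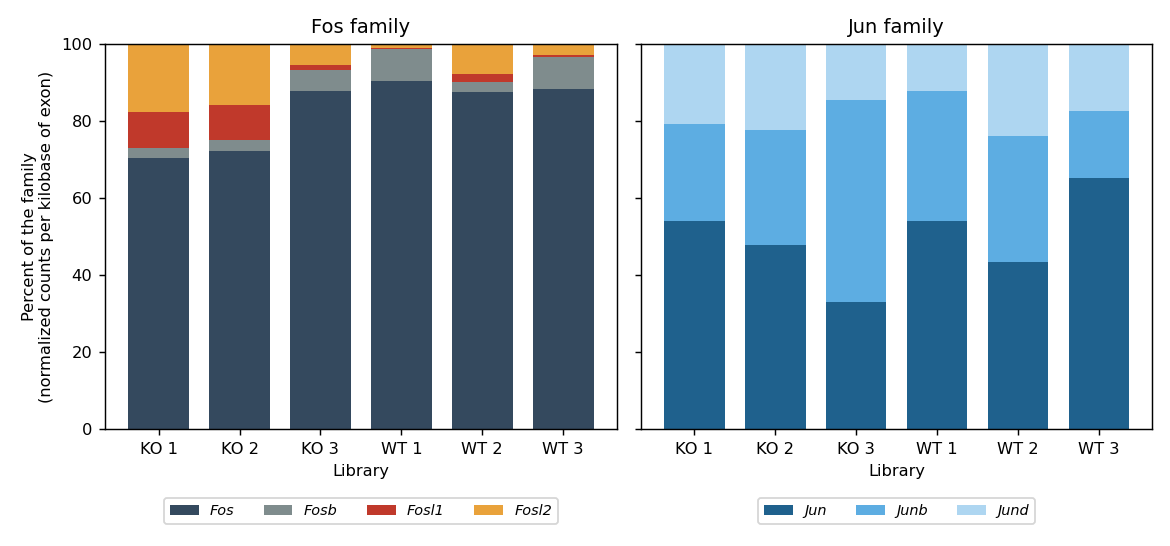
Share of each gene in the summed level of the Fos family (left) and the Jun family (right) in each library, in percent of normalized counts per kilobase of exon. *Fos* takes 70.4% to 90.5% of the Fos family, and *Fosl1* and *Fosl2* are widest in KO replicates 1 and 2.

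*Jun* encodes c-Jun, the main partner of the Fos proteins, and spans 95049034 to 95052222 of chromosome 4. *Jun* had 1335, 1443 and 1359 normalized counts in KO replicates 1 to 3 and 7802, 1596 and 2929 in WT replicates 1 to 3. The KO cultures were nearly equal, and all 3 were below the 3 WT cultures (p = 0.1 by exact permutation, the floor of the design). WT replicate 2 was only slightly above them, while WT replicate 1 was several fold higher. Mean levels were 1379 ± 56.4 in KO and 4109 ± 3267 in WT (SD over 3 cultures each), and the fitted log2 difference was -1.58 ± 0.55 (SE; edgeR adjusted p = 0.342, and 0.0267 unadjusted). The difference shrank to -0.72 without WT replicate 1 and widened to -1.96 (edgeR adjusted p = 0.0551) without WT replicate 2.

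*Junb* encodes JunB, a weaker activator that can oppose c-Jun, and lies on chromosome 8 from 84974484 to 84978718, where its span overlaps *Prdx2* on the other strand. Its level was 447, 650.3 and 1565 normalized counts in KO replicates 1 to 3 and 3542, 873 and 560.4 in WT replicates 1 to 3. WT replicate 3 was below KO replicates 2 and 3, so the genotypes overlapped widely. *Junb* differed by -0.90 ± 0.79 (SE) in log2 (edgeR adjusted p = 0.725), by 0.30 without WT replicate 1 and by -1.60 without KO replicate 3.

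*Jund* encodes JunD, which is known for steady expression in resting cells, and lies on chromosome 8 from 70698949 to 70700616. It had 266, 353 and 311 normalized counts in KO replicates 1 to 3 and 916, 458 and 407 in WT replicates 1 to 3. As for *Jun*, the KO cultures were all below the WT cultures (p = 0.1 by exact permutation, the floor of the design). The fitted log2 difference was -0.94 ± 0.34 (SE; edgeR adjusted p = 0.362, and 0.0309 unadjusted), and -0.49 without WT replicate 1.

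Within the Jun family, *Jun* held 54.2%, 47.8% and 33.0% of the level per kilobase of exon in KO replicates 1 to 3 and 54.0%, 43.4% and 65.3% in WT replicates 1 to 3. *Junb* was the largest part in KO replicate 3 alone, with 52.6%. The summed Fos family level per kilobase was 2.47, 2.29 and 5.75 times the summed Jun family level in KO and 5.06, 3.73 and 5.83 times in WT. KO replicates 1 and 2 had the lowest of these ratios. KO replicate 3 fell among the WT cultures per kilobase of exon, but with 6.38 it was above their 4.16 to 5.57 per kilobase of coding sequence, and with 6.82 above their 4.44 to 6.06 by raw counts.

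*Egr1* encodes a zinc finger factor that is induced through serum response factor, and lies on chromosome 18 from 34859823 to 34864984. It had 22316, 23786 and 33457 normalized counts in KO replicates 1 to 3 and 77891, 14703 and 31007 in WT replicates 1 to 3. It was among the most abundant transcripts, with a rank by raw count of 112, 102 and 67 in KO and 25, 244 and 86 in WT. The KO cultures lay between the WT cultures. Mean levels were 26520 ± 6053 in KO and 41200 ± 32804 in WT (SD over 3 cultures each), and the log2 difference of -0.64 ± 0.58 (SE; edgeR adjusted p = 0.738) became 0.21 without WT replicate 1 and -1.04 without WT replicate 2.

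*Atf3* encodes a stress-induced factor that pairs with Jun proteins and often represses, and lies on chromosome 1 from 191170296 to 191218039. It had 63.7, 92.9 and 235 normalized counts in KO replicates 1 to 3 and 1702, 318 and 181 in WT replicates 1 to 3. KO replicate 3 was above WT replicate 3, and WT replicate 1 was several fold above the next culture. The fitted difference of *Atf3* was -2.49 ± 0.96 (SE) in log2 (edgeR adjusted p = 0.386, and 0.0384 unadjusted), and it was -0.94 without WT replicate 1. DESeq2 gave *Atf3* an adjusted p of 0.0564, the lowest of the 10 genes with that tool.

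*Ier2* encodes a small nuclear immediate early protein and lies on chromosome 8 from 84661331 to 84662852. Cultures had 934, 1225 and 3089 normalized counts in KO replicates 1 to 3 and 11011, 1298 and 2119.7 in WT replicates 1 to 3. KO replicate 3 was above WT replicates 2 and 3. Its log2 difference was -1.46 ± 0.89 (SE; edgeR adjusted p = 0.586) with all libraries and 0.031 without WT replicate 1.

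Per kilobase of exon, *Fos* and *Egr1* were the highest of the 10 genes in both genotypes. In WT the mean levels were 10600.2 normalized counts per kilobase for *Fos*, 9188 for *Egr1* and 3159.9 for *Ier2*, and the others lay between 1289 (*Jun*) and 61.1 (*Fosl1*). In KO they were 5914 for *Egr1*, 3145 for *Fos* and 1149.6 for *Ier2*, and the others lay between 432 (*Jun*) and 60.5 (*Atf3*). The WT ranges of *Fos* and *Egr1* overlapped almost wholly, but both genes were read in the same libraries. In each WT culture *Fos* was above *Egr1*, at 20780.3 against 17371, 3773 against 3279 and 7247 against 6915 in replicates 1 to 3. In each KO culture *Fos* was below *Egr1*, at 1345 against 4977, 1564 against 5305 and 6527 against 7462. The order in WT depends on the exon lengths used, 2352 bases for *Fos* and 4484 for *Egr1*. By normalized counts not divided by length, *Egr1* was above *Fos* in every library. In WT replicates 1 to 3 it had 77891 against 48875, 14703 against 8875 and 31007 against 17045. The order within libraries was not tested.

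The spread between cultures of 1 genotype was measured as the pooled SD of log2 CPM (normalized, with 0.5 added). Its median was 1.02 over the 10 genes and 0.27 over all genes tested. *Fosb* had an SD of 1.85, above 99.3% of all genes tested. *Atf3* (1.31), *Ier2* (1.30), *Fos* (1.25) and *Junb* (1.17) were also above 95% of genes. *Fosl2*, with 0.21, was below the median gene, at the 34.9 percentile, and *Jund* (0.46) and *Fosl1* (0.55) lay between.

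**Figure D4:**
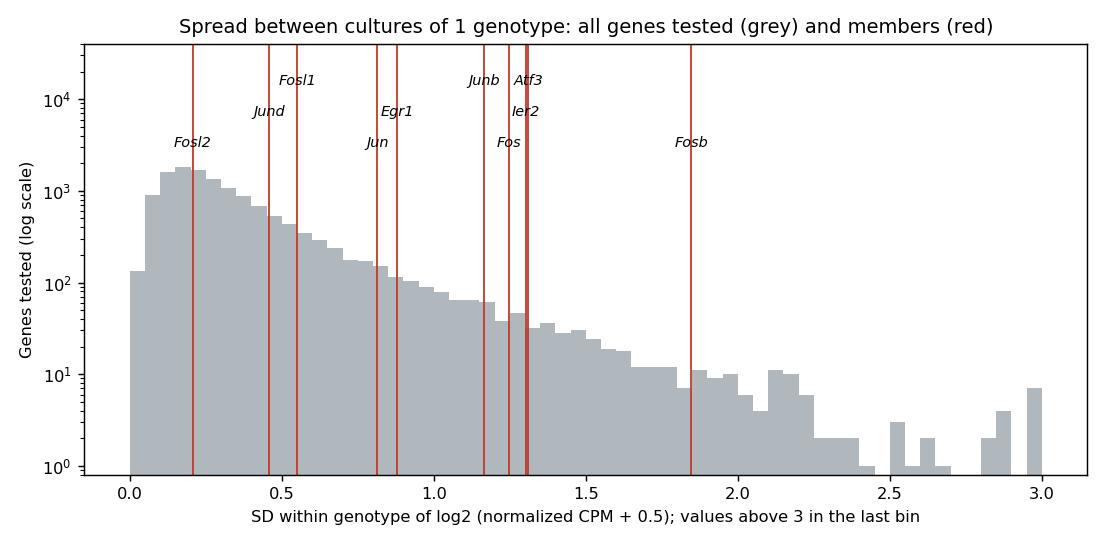
Histogram (log scale) of the SD within genotype of log2 CPM (normalized, with 0.5 added) for all 13479 genes tested, with the 10 genes as red lines. *Fosl2* lies at 0.21, near the bulk of genes, and *Fosb* at 1.85, in the upper tail.

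The 8 genes other than *Fosl1* and *Fosl2* shared their peak in WT replicate 1 but not each other rise and fall. KO replicate 3 was 7.27-fold (*Fosb*) and 4.49-fold (*Fos*) above the mean of the other KO cultures, but 0.978-fold for *Jun* and 1.01-fold for *Jund*. WT replicate 2 was below WT replicate 3 for *Fos*, *Fosb*, *Jun*, *Egr1* and *Ier2* and above it for *Junb*, *Jund* and *Atf3*. Pearson's r of their log2 levels lay between 0.68 and 0.98 over their 28 pairs (median 0.84), and after each genotype's mean was removed it lay between 0.55 and 0.995 (median 0.84). *Fos* and *Fosb* had an r of 0.98, and *Junb* and *Atf3* one of 0.995 after the genotype means were removed. With these 8 genes, *Fosl1* had an r between -0.89 and -0.49 and *Fosl2* one between -0.74 and -0.042. These values describe 6 libraries that share their normalization, of which KO replicates 1 and 2 were nearly equal.

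Among 11126 other genes averaging 100 or more normalized counts, the most alike in log2 level over the 6 libraries was *Dnajb2* for *Fos* (r = 0.992), *Akap8l* for *Fosb* (0.996), *Abhd14b* for *Jun* (0.998), *Cebpb* for *Junb* (0.977) and *Asl* for *Jund* (0.993). It was *Cdc16* for *Fosl1* (0.999), *P4ha2* for *Fosl2* (0.991), *Emc6* for *Atf3* (0.998) and *Ivd* for *Ier2* (0.987). For *Egr1* it was *Scnm1* (0.987), followed by its paralog *Egr2* (0.986). Each r was picked from the top of 11126 values over 6 libraries, so its size alone says little. Many of these genes spanned a far smaller range than the gene they resembled, such as *Dnajb2* with 969 to 1648 normalized counts. *Egr2* spanned a like range, with 2059.5, 2186 and 4094 normalized counts in KO replicates 1 to 3 and 11225, 1117 and 4353 in WT replicates 1 to 3.

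Other immediate early genes showed part of the same picture. Of 25 such genes, 25 were tested and 0 passed the threshold in edgeR's test. In that test 2 had an unadjusted p under 0.05 (both lower in KO, against 5.71% of all genes). DESeq2 called 1, against 4.69% of all genes. A log2 fold change below 0 was found for 20 of 25, with a median of -0.67, which was -0.22 without WT replicate 1. WT replicate 1 was the highest library for 12 of the 25, against 19.8% of all genes tested. Their summed normalized counts were 67603, 67253 and 96088 in KO replicates 1 to 3 and 203824, 65941 and 84078 in WT replicates 1 to 3, the same order within each genotype as for *Egr1*, with 1 exception between the close KO replicates 1 and 2.

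*Klf6*, a zinc finger factor, had 6961, 6611 and 7482 normalized counts in KO and 12982, 9756 and 9563 in WT replicates 1 to 3. Its log2 fold change was -0.62 (adjusted p = 0.224 from edgeR and 0.0235 from DESeq2). *Ier3*, an early response gene linked to survival, had a log2 fold change of -1.29 (adjusted p = 0.420 from edgeR), and *Egr3*, a paralog of *Egr1*, one of -1.53 (adjusted p = 0.455). Without WT replicate 1 these were -0.62 for *Ier3* and -0.52 for *Egr3*. *Nr4a2*, an orphan nuclear receptor, had its highest level in WT replicate 2, with 530.2 normalized counts against 66.9 to 278 in the other libraries, so not every early gene followed WT replicate 1. *Nr4a1*, named after its values were seen, did, with 10796 normalized counts there against 838 to 3891 elsewhere.

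**Figure D5:**
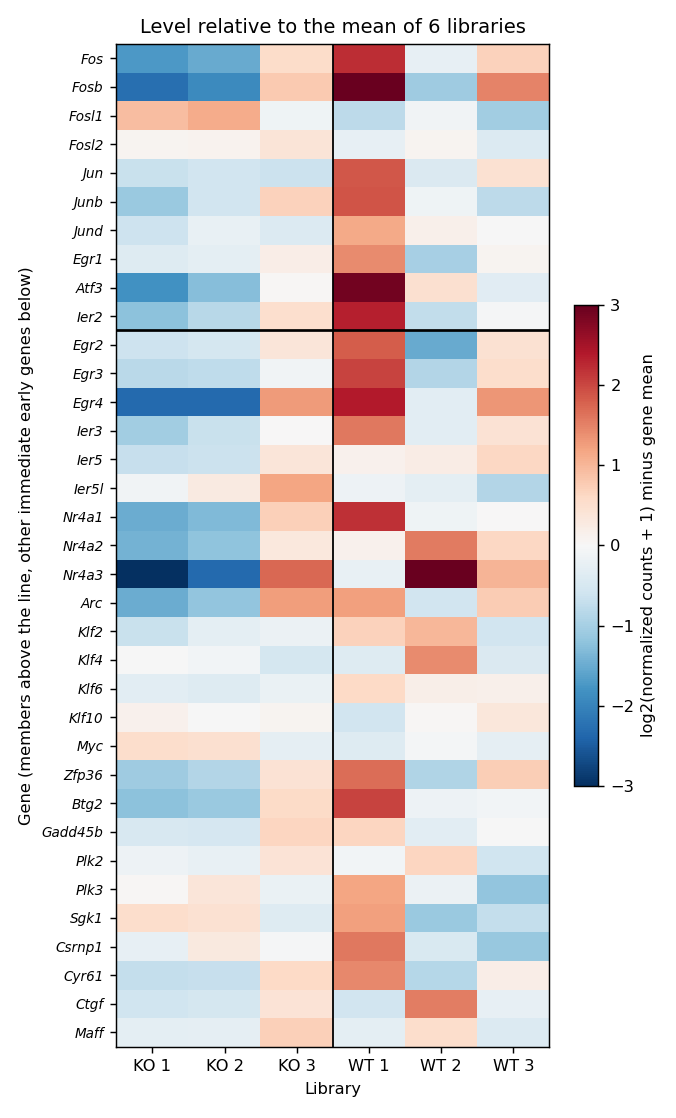
Level of the 10 genes (above the line) and 25 other immediate early genes (below) in each library, as log2(normalized counts + 1) minus the mean of the gene over the 6 libraries. WT replicate 1 is the highest library for 8 of the 10 and for 12 of the 25 genes, and KO replicates 1 and 2 are alike throughout.

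Of the kinases that carry growth factor and stress signals to these promoters, 13 of 13 genes of the MAP kinase cascade were tested and 0 passed the threshold with edgeR or DESeq2. Their median log2 fold change was -0.06. The summed normalized counts lay between 40048 and 41068 in KO and between 41053 and 43552 in WT, without the swings of the immediate early genes. *Mapk3*, which encodes ERK1, was the only gene of the list with an unadjusted p under 0.05, with 7041, 7176 and 6709.7 normalized counts in KO and 10811, 10720.0 and 8038 in WT replicates 1 to 3 (log2 fold change -0.50, adjusted p = 0.294 from edgeR).

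Serum response factor and its ternary complex partners bind the promoters of *Fos* and *Egr1*, and the Nab proteins hold back Egr factors. Of these 8 genes, 8 were tested and 0 passed the threshold with edgeR. With that tool 2 had an unadjusted p under 0.05 (both higher in KO, against 6.14% of all genes). DESeq2 called 1, against 4.69% of all genes. *Srf* itself had 1076, 1234 and 2236 normalized counts in KO and 1948, 1121 and 2049 in WT replicates 1 to 3 (log2 fold change -0.17, adjusted p = 0.893 from edgeR). *Nab2*, the corepressor that Egr factors themselves induce, had 3729, 3950.0 and 3704 normalized counts in KO and 1419, 1734 and 1937 in WT replicates 1 to 3. The KO cultures were nearly equal and each was well above each WT culture, a pattern unlike that of *Egr1*. The log2 fold change of *Nab2* was 1.16 ± 0.14 (SE), with an edgeR adjusted p of 0.0717, just above the threshold. It was called in 2 of 14 alternatives, DESeq2 (adjusted p = 1.94e-08) and the fit without WT replicate 2 (adjusted p = 0.0325), with a range of the log2 fold change from 1.04 to 1.26. *Nab1* had a log2 fold change of 0.28 (adjusted p = 0.421 from edgeR).

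Of 13 phosphatases and feedback inhibitors that shut off MAP kinase signalling, 13 were tested and 0 passed the threshold with edgeR. An edgeR unadjusted p under 0.05 was found for 3, against 11.8% of all genes. DESeq2 called 2, both higher in KO, against 4.69% of all genes in either direction. *Dusp4* had 562, 641 and 409 normalized counts in KO and 213, 246.5 and 298 in WT replicates 1 to 3 (log2 fold change 1.09, adjusted p = 0.134 from edgeR and 0.00316 from DESeq2). *Spry1*, a Sprouty inhibitor of receptor tyrosine kinase signalling, had 663.5, 581 and 190.2 in KO and 145, 98.0 and 104 in WT (log2 fold change 2.05, adjusted p = 0.166 from edgeR and 0.00188 from DESeq2). *Dusp1*, itself an immediate early gene, moved the other way, with 927, 956 and 2016 normalized counts in KO and 7362, 2427 and 2045 in WT (log2 fold change -1.60, adjusted p = 0.363 from edgeR). WT replicate 1 was its highest library, as for *Fos*, and without that library its log2 fold change was -0.79.

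Among 11 other genes of the bZIP class, which can pair with AP-1 proteins, 9 were tested and 0 passed the threshold with edgeR. An edgeR unadjusted p under 0.05 was found for 2, against 11.8% of all genes, and DESeq2 called 1, against 4.69%. *Batf*, a partner of Jun proteins, had 9.55, 6.50 and 5.68 normalized counts in KO and 35.2, 192 and 11.8 in WT replicates 1 to 3, so its difference rested largely on WT replicate 2 (log2 fold change -3.44, and -1.70 without it). *Jdp2*, a Jun dimerization protein that represses, had a log2 fold change of 0.52 (adjusted p = 0.367 from edgeR).

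Of 14 genes listed as AP-1 targets, among them matrix metalloproteinases and plasminogen activation genes, 11 were tested. Of these 11, 0 passed the threshold in edgeR's test or with DESeq2, and 0 had an edgeR unadjusted p under 0.05, against 11.8% of all genes. The median log2 fold change of the 11 was -0.12, which was 0.50 without WT replicate 2. WT replicate 1, the library with most *Fos*, was the highest library for 0 of the 11, against 19.8% of all genes tested. WT replicate 2 was the highest for 5 of them, against 26.8% of all genes tested. *Timp1*, an inhibitor of metalloproteinases, had 3634, 3584 and 2833 normalized counts in KO and 3772, 5473 and 2889.7 in WT replicates 1 to 3. *Hmox1*, heme oxygenase 1, had 17653, 18009 and 18658 in KO and 16810.2, 5155 and 14697 in WT.

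Heat shock genes, which rise with cell stress, were read beside these results. Of 9 genes, 9 were tested and 0 passed the threshold in edgeR's test. Lower in KO at an unadjusted p under 0.05 in that test were 2 of the 9, against 5.71% of all genes. The summed normalized counts of the heat shock genes were 39298 to 40544 in KO and 58112, 45912 and 39451 in WT replicates 1 to 3. WT replicate 1 thus had the highest sum. By single gene, WT replicate 1 was the highest library for 4 of the 9 and WT replicate 2 for 3, against 19.8% and 26.8% of all genes tested. *Dnajb1*, a cochaperone of Hsp70, had 12416 normalized counts in WT replicate 1 against 1313 to 2570 in the other libraries. *Hspa1a*, an inducible Hsp70 gene, had 46.7, 38.1 and 41.6 normalized counts in KO and 168, 84.6 and 122 in WT replicates 1 to 3 (log2 fold change -1.57, adjusted p = 0.142 from edgeR and 0.00321 from DESeq2). Its near-identical copy *Hspa1b* had 96.6, 68.7 and 109 in KO and 160.3, 88.7 and 178 in WT, with overlap (log2 fold change -0.64, adjusted p = 0.549 from edgeR and 0.532 from DESeq2). How reads that match both copies were counted was not given in the sources used here. The part of heat shock and of cell make-up in the levels of the 10 genes was not tested. The summed macrophage markers were at 3131, 95.9 and 1710.1 in WT replicates 1 to 3 and at 2902, 3102 and 1268 in KO, and the summed fibroblast markers were at 225369, 297275 and 179421 in WT and 254085, 262665 and 228452 in KO. The summed epithelial markers were at 1088, 3.09 and 475 in WT replicates 1 to 3 and at 214, 663 and 56.8 in KO, with WT replicate 1 the highest library for 4 of the 4 tested (*Epcam*, *Cdh1*, *Krt8* and *Krt18*) and *Krt5* and *Krt14* at 0 in each library. The summed mural markers were at 35231 in WT replicate 2 and at 16261 to 24337 in the other libraries. These sums rest on few genes. WT replicate 2 was the highest library for 3 of 10 mural markers (*Acta2*, *Tagln* and *Cspg4*), near its 26.8% of all genes tested. It was the highest for 3 of 10 fibroblast markers (*Col1a1*, *Col1a2* and *Thy1*). *Pdgfrb* had 7790 normalized counts there, against 14678 to 18983 in the other libraries. In bulk RNA of cultures, fewer cells with a transcript and less transcript per cell cannot be told apart.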

How the data were processed

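RNA of 6 cultures was sequenced from stranded, poly(A)-enriched libraries. The authors deposited raw counts of reads per gene symbol, made with mm10 as the reference. The submitters' processing notes name bcl2fastq 2.20.0.422, STAR 2.7.7a, HTSeq 0.13.5 and DESeq2 1.26.0, without roles, and the strand setting and annotation of the counting were not given in the sources used here. The 5 summary lines (22.2% of reads) were left out. Each column was matched to its sample by genotype and replicate number.

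Genes were filtered with filterByExpr (minimum count 10), which left 13479 of 24421. Counts were normalized with TMM (factors 0.976 to 1.03) and tested for genotype alone in edgeR 4.0.16 (R 4.3.3), by two-sided quasi-likelihood F-tests whose p-values were adjusted by Benjamini-Hochberg over all genes tested, and called at 0.05. The standard error is the log2 fold change divided by the square root of F. A two-sided exact permutation test of 3 against 3 cannot go below 0.1. P-values measure the spread between these cultures. DESeq2 1.42.0 and limma-voom (limma 3.58.1) were alternatives. Each test was checked on simulated data with known changes.

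Positions, exon and coding lengths came from GENCODE M21 (GRCm38) and promoters from RefSeq (GRCm38.p6). Named genes were the 10 genes, defining markers, the nearest genes by correlation and, per list, genes past the threshold or up to 4 with the smallest p. The genes, lists and tests were chosen with earlier results of these data known. *Srf* and *Nr4a1* fall outside this rule and were named after their values were seen. *Timp1*, *Hmox1*, *Hspa1b* and some cell type markers also fall outside it. Of the AP-1 targets *Lif* had the smallest unadjusted p by edgeR (0.117). The targeted gene is not reported here.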

Additional observations from a re-analysis of the deposited data

How the results depend on the processing

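Of the 10 genes, the number called was 0 in each of 14 alternatives. Of the 140 refitted log2 fold changes of single genes, 137 kept their direction and 3 changed it, each without WT replicate 1: *Junb* became 0.30, *Egr1* 0.21 and *Ier2* 0.031. Over the omission of single cultures these 3 ranged from -1.60 to 0.30, from -1.04 to 0.21 and from -2.16 to 0.031. The median of the 10 ranged from -1.59 (without KO replicate 3) to -0.23 (without WT replicate 1), and was -0.86 with the replicate number as a block. Over all genes, 9 were called with all libraries, 21 without a filter beyond 1 count, 21 with at least 10 counts in every library, 627 with DESeq2, 2 with the replicate block and 1 with KO replicates 1 and 2 summed. When single cultures were omitted, the number lay between 0 (without KO replicate 3) and 395 (without WT replicate 2). Deviations of same-numbered cultures from their genotype mean correlated at 0.21, -0.19 and 0.11, against -0.39 to 0.38 for cultures of unlike number. This gave no sign that the numbers pair the cultures. It could not exclude pairing, because KO replicates 1 and 2 were nearly equal and each mean was of 3 cultures. The block changed no call among the 10 genes. The cause was not tested.

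The make-up depends on the length used. *Fosl2* held 13.0% of the Fos family in KO and 3.96% in WT per kilobase of exon, 35.6% and 13.0% by raw counts, and 38.0% and 14.4% per kilobase of coding sequence. For *Jun* in KO the share of the Jun family was 45.0% per kilobase of exon and 56.0% per kilobase of coding sequence. The coding length of GENCODE was chosen after seeing the data, and the RefSeq protein length was not run.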
